A study of Homo sapiens with 24 samples.

Results

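The 10 H2A genes HIST1H2AB, HIST1H2AC, HIST1H2AD, HIST1H2AE, HIST1H2AG, HIST1H2AH, HIST1H2AI, HIST1H2AK, HIST1H2AL and HIST1H2AM lie in HIST1, the main histone gene cluster, on chromosome 6. Each was represented by a window on 1 strand of the hg19 build, with edges rounded to 0.1 kb, and a peak belonged to a gene when it shared at least 1 nt with the window on that strand. By this rule 322 of the 269336 peaks in 7 eCLIP peak lists belonged to the 10 genes. The assay, eCLIP, sequences RNA that was crosslinked by ultraviolet light to a protein and recovered with an antibody, and sets it against a size-matched input library. All libraries came from 293T cells, a human embryonic kidney line carrying the SV40 large T antigen, crosslinked on the plate. The groups were SLBP at 40 U of RNase I (replicates 1 and 2), SLBP at 5 U (replicates 3 and 4), RBFOX2 at 40 U (replicates 1 and 2) and an isotype control IgG at 40 U (1 library). Whether replicates are separate cultures is not stated in the labels, so their spread may be technical.

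H2A is a core histone, and with H2B it forms the dimers that flank the H3-H4 tetramer of the nucleosome. The H2A genes of HIST1 are replication-dependent: they are intronless, they are expressed mainly in S phase, and their mRNAs end in a conserved stem-loop in place of a poly(A) tail. SLBP, the stem-loop binding protein, binds that structure and takes part in the processing, export, translation and decay of these mRNAs. RBFOX2 is a splicing regulator that binds GCAUG elements. Several of the genes encode the same protein: HIST1H2AG, HIST1H2AI, HIST1H2AK, HIST1H2AL and HIST1H2AM share the type 1 sequence, and HIST1H2AB and HIST1H2AE share the type 1-B/E sequence. The sources used here do not give how reads matching several copies were assigned, and its part in the values of single genes was not tested.

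No hg19 sequence was used here, so the stem-loops themselves are not shown. RefSeq's promoter table on GRCh38.p14 held 9 of the 10 genes under their current symbols (HIST1H2AH, now H2AC12, was not matched). The 250 bases before the start of transcription are printed for the gene with the highest mean peak (HIST1H2AG, now H2AC11, chr6:27132793-27133042, plus strand), for the gene with the shortest SLBP signal (HIST1H2AE, now H2AC8, chr6:26216671-26216920, plus strand) and for the gene with the lowest peak (HIST1H2AB, now H2AC4, chr6:26033619-26033868, minus strand). Each reads 5' to 3' on the gene's strand, and capitals mark the CCAAT motif, the TATA box as TATAAA, and the octamer, ATGCAAAT, on either strand. In HIST1H2AG a TATA box overlaps its own reverse complement.
HIST1H2AG: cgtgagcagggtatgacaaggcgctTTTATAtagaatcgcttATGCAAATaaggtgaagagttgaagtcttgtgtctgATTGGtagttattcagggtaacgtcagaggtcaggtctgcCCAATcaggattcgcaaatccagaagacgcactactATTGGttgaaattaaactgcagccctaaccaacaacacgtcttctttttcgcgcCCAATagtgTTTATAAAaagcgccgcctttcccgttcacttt
HIST1H2AE: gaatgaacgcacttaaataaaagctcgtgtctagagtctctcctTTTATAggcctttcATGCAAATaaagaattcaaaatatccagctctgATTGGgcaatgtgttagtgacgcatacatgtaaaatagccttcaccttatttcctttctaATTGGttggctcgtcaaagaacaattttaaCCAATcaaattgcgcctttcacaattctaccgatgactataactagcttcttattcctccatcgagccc
HIST1H2AB: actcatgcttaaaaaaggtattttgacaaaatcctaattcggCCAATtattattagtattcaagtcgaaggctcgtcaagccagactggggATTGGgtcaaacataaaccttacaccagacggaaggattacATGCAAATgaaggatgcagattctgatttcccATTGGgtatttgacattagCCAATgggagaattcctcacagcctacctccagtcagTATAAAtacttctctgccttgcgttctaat
A CCAAT lay in the 250 bases of all 9 matched genes, against 32.0% of the 35116 promoters in the table. The octamer lay in 7 of the 9, against 1.63% of all promoters, and TATAAA in 6 of the 9, against 10.7%. These counts take either strand. On the gene's strand alone, CCAAT lay in 9 of the 9 (18.1% of all promoters), the octamer in 6 (0.854%) and TATAAA in 5 (6.80%). The only TATAAA of HIST1H2AE lay on the opposite strand. These matches describe the letters and were not set against the eCLIP values.

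SLBP immunoprecipitation recovered RNA of all 10 H2A genes above input in each of the 4 libraries, while 0 of the 10 passed the same limits in either RBFOX2 library or in IgG. Peaks counted as enriched if they had a −log10 p of 5 or more and a log2 fold over input of 3 or more (8-fold), both as deposited. Enriched peaks in the windows numbered 69, 53, 65 and 53 in SLBP replicates 1 to 4, a mean of 60.0 ± 8.2 (SD, n = 4), against 0 of 27 and 0 of 30 window peaks in RBFOX2 replicates 1 and 2 and 0 of 17 in IgG. Many of these peaks abutted: with touching peaks merged they came to 37, 26, 30 and 31 sites, a mean of 31. The SLBP windows held 70, 53, 72 and 53 peaks in all, so 98.6%, 100%, 90.3% and 100% of them passed. Across the whole lists, 1.23%, 1.27%, 1.70% and 2.33% of SLBP peaks passed, against 7.95% and 7.66% of RBFOX2 peaks and 0.180% of IgG peaks. The 8 SLBP window peaks that missed the call lay in 4 windows and missed it on the fold, with log2 folds of 2.00 to 2.85; the lowest enriched one had 3.04. On the opposite strand of the same 10 windows the lists held 0 peaks in each of the 7 libraries.

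Enriched length gave the same call in nt. A window without an enriched peak has 0 nt by definition, so the comparisons in this paragraph are not separate evidence. Summed over the 10 windows, enriched peaks covered 2003, 1663, 1991 and 1890 nt in SLBP replicates 1 to 4, against 0 nt in both RBFOX2 libraries and in IgG. In 10 of 10 windows every SLBP library lay above both RBFOX2 libraries. The same held for 1.00% of the 6281 stretches of touching peaks that had an enriched peak of SLBP or RBFOX2. That share is not a like background, since a stretch enriched in RBFOX2 alone could not pass. The RBFOX2 lists held 5954 and 7480 enriched peaks, against 233 to 289 in the SLBP lists. A window can also pool several stretches, and the genes were chosen with earlier results known. The exact permutation test gave p = 0.133 for each gene (two-sided, 4 against 2 libraries, adjusted over the 10 genes p = 0.133), the smallest value this design allows, so no gene could pass 0.05.

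**Figure D1:**
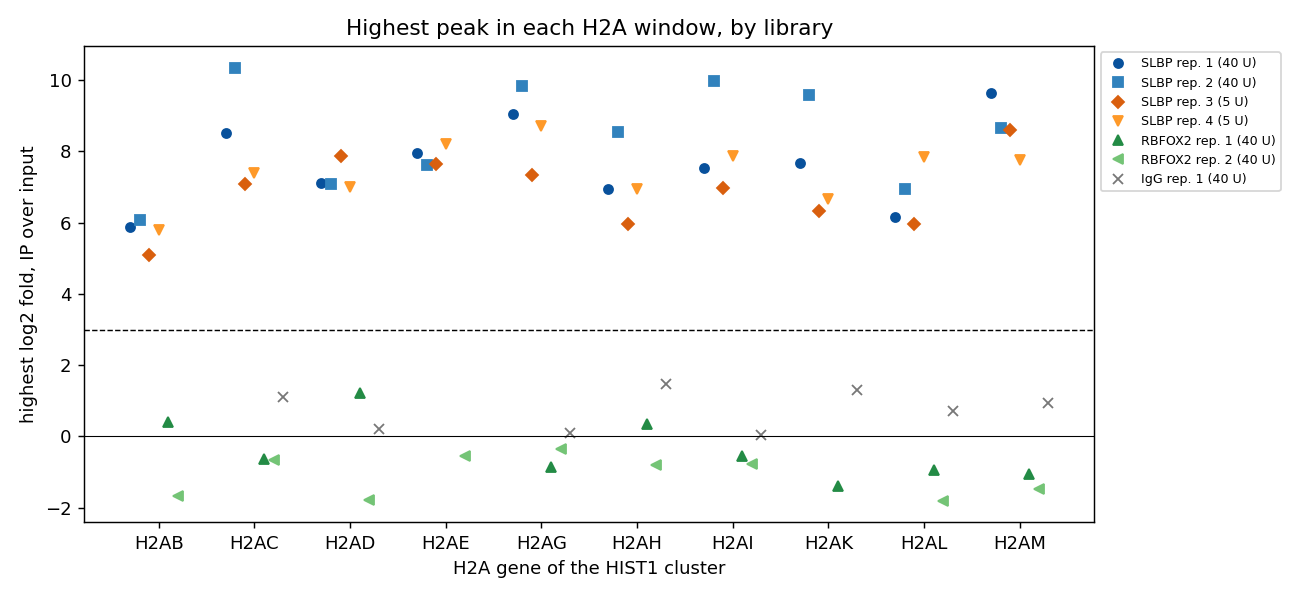
Highest log2 fold of any peak in each H2A window, 1 point per library; the dashed line marks the limit of 3 and a missing point means that the list had no peak there. SLBP points lie between 5.08 and 10.35, RBFOX2 points at or below 1.22 and IgG points at or below 1.48.

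By highest log2 fold, HIST1H2AB stood last of the 10 genes in each of the 4 SLBP libraries, while the gene in first place changed. All folds are the authors' own, and the scaling between lists is not known, so folds are ranked within a list and set side by side without a test. HIST1H2AG (hg19 chr6, 27100800 to 27101400, plus strand) had highest log2 folds of 9.05, 9.84, 7.33 and 8.71 in SLBP replicates 1 to 4, a mean of 8.73 ± 1.05 (SD, n = 4). Its highest RBFOX2 peaks had −0.86 and −0.36, and its highest IgG peak 0.11. HIST1H2AB (26033300 to 26033900, minus strand) had 5.87, 6.06, 5.08 and 5.79 in SLBP replicates 1 to 4, a mean of 5.70 ± 0.43 (SD, n = 4). RBFOX2 had 0.41 and −1.68 there, and IgG had no peak. The SLBP values of HIST1H2AG and HIST1H2AB did not overlap, but these genes were picked for having the highest and lowest means.

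The other 8 genes had mean folds between those of HIST1H2AG and HIST1H2AB. HIST1H2AM (27860400 to 27861000, minus strand), a type 1 gene, had 9.64, 8.65, 8.59 and 7.76 in SLBP replicates 1 to 4 (8.66 ± 0.77, SD, n = 4), against −1.06 and −1.46 in RBFOX2 and 0.93 in IgG. HIST1H2AC (26124300 to 26125000, plus strand) had 8.51, 10.35, 7.07 and 7.38 (8.33 ± 1.48, SD, n = 4), against −0.63 and −0.65 in RBFOX2 and 1.10 in IgG. HIST1H2AI (27775900 to 27776600, plus strand), another type 1 gene, had 7.52, 9.97, 6.96 and 7.86 (8.08 ± 1.31, SD, n = 4), against −0.54 and −0.78 in RBFOX2 and 0.05 in IgG. In HIST1H2AC and HIST1H2AI replicate 2 was the highest library. HIST1H2AE (26217100 to 26217800, plus strand), which shares its protein with HIST1H2AB, had 7.97, 7.63, 7.64 and 8.21 (7.86 ± 0.28, SD, n = 4), against no peak and −0.55 in RBFOX2 and no peak in IgG. HIST1H2AK (27805600 to 27806200, minus strand), a type 1 gene, had 7.67, 9.59, 6.32 and 6.66 (7.56 ± 1.47, SD, n = 4), against −1.39 and no peak in RBFOX2 and 1.31 in IgG. The SD of HIST1H2AE was the smallest of the 10, and its values all lay above those of HIST1H2AB.

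HIST1H2AD (26198900 to 26199600, minus strand) had 7.13, 7.08, 7.86 and 6.99 in SLBP replicates 1 to 4 (7.26 ± 0.40, SD, n = 4), against 1.22 and −1.80 in RBFOX2 and 0.21 in IgG. HIST1H2AH (27114800 to 27115400, plus strand) had 6.93, 8.55, 5.95 and 6.94 (7.09 ± 1.07, SD, n = 4), against 0.36 and −0.81 in RBFOX2 and 1.48 in IgG. HIST1H2AL (27833000 to 27833600, plus strand), the last of the type 1 genes, had 6.16, 6.95, 5.96 and 7.84 (6.73 ± 0.86, SD, n = 4), against −0.94 and −1.80 in RBFOX2 and 0.73 in IgG. No RBFOX2 or IgG peak in any of the 10 windows reached the lowest SLBP top peak of the same gene. Within the lists, HIST1H2AB stood 10th of the 10 genes in each SLBP library, HIST1H2AL ran from 4th to 9th and HIST1H2AG from 1st to 4th. The SDs are over lists that mix RNase I amounts and may be scaled differently, so they do not measure the difference between 2 genes. The means of the type 1 genes ran from 8.73 in HIST1H2AG to 6.73 in HIST1H2AL.

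The rank of every gene but HIST1H2AB moved between libraries. HIST1H2AC had the highest peak of the 10 in SLBP replicate 2 and stood sixth in replicate 4, whereas HIST1H2AM led in replicates 1 and 3 and HIST1H2AG in replicate 4. Among all enriched peaks of a list, the top peak of HIST1H2AM ranked 4th of 284 in SLBP replicate 1 and 7th of 289 in replicate 3. The top peak of HIST1H2AB ranked 140th of 284, 161st of 233, 157th of 289 and 157th of 236. The authors' −log10 p did not separate the top peaks: of the 40 pairs of gene and SLBP library, 22 had a top peak at 15.66, a value many peaks share, and 16 at the ceiling of 400.

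In nearly all pairs of gene and library the SLBP signal was strongest at its 3' end. For every gene the 3'-most nucleotide that was enriched in all 4 SLBP libraries was taken as a common 3' edge, a choice made after the peaks were seen. In 31 of the 32 pairs of gene and library with an enriched peak more than 200 nt upstream of that edge, the highest peak within 100 nt of it had the higher fold, by a median of 2.92 on the log2 scale. HIST1H2AC in SLBP replicate 2 had the widest gap, 10.35 within 100 nt against 5.14 beyond 200 nt. The exception was HIST1H2AH in SLBP replicate 4, with 6.59 within 100 nt against 6.94 beyond 200 nt. This comparison leaves out the stretch from 100 to 200 nt. HIST1H2AD in SLBP replicate 2 had its top peak there, with 7.08 against 6.70 within 100 nt. In 38 of the 40 pairs the top peak ended within 50 nt of that library's own 3'-most enriched nucleotide, and in 30 it ended exactly there. For HIST1H2AE in SLBP replicates 1 and 2, with 1 enriched peak each, this was bound to hold. Short signals, such as 80 nt in HIST1H2AB in SLBP replicate 1, left little room to miss the limit.

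In each SLBP library the median fold was highest in the first 100 nt and lower in every bin farther upstream. The median of the highest log2 folds within 100 nt of the common edge was 7.59, 8.60, 7.02 and 7.57 in SLBP replicates 1 to 4, over 10 genes in each. From 100 to 200 nt it was 5.04, 7.08, 4.44 and 5.70, over 5, 5, 3 and 5 genes. From 200 to 300 nt it was 4.77, 5.09, 3.54 and 4.46, over 5, 3, 5 and 3 genes. From 300 to 400 nt it was 4.35, 5.14, 3.48 and 5.01, over 7, 4, 8 and 6 genes. Beyond 200 nt there was thus no steady fall with distance. The RBFOX2 medians lay below 0 in each bin: within 100 nt they were −0.90 and −1.26, over 4 genes in each replicate, and from 200 to 300 nt −1.03 and −1.80. The bins pool genes with different peaks, so they describe the lists and were not tested.

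**Figure D2:**
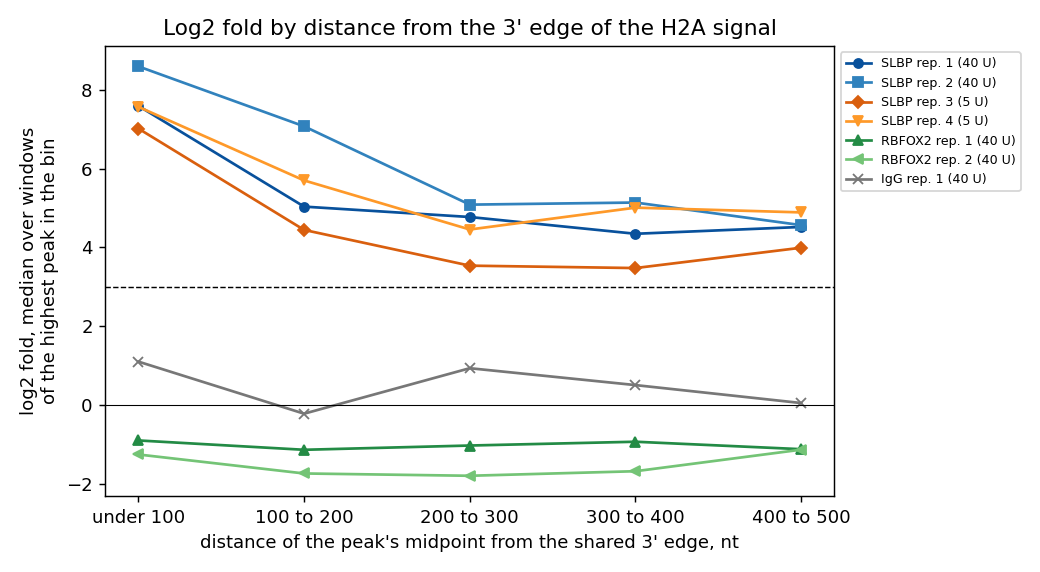
Median over the H2A windows of the highest log2 fold in 100-nt bins, against the distance of the peak's midpoint from the common 3' edge, 1 line per library. The SLBP lines are highest under 100 nt, at 7.02 to 8.60, and the RBFOX2 lines lie below 0 in each bin.

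The 3' edge fell at nearly the same nucleotide in different libraries. In HIST1H2AG it lay at position 27101313 in all 4 SLBP libraries. In HIST1H2AE it lay at 26217662 in SLBP replicates 1 to 3 and at 26217663 in replicate 4, and in HIST1H2AC at 26124915 in replicates 1 to 3 and at 26124913 in replicate 4. Over the 10 genes the edges of the 4 libraries spanned a median of 5 nt, from 0 nt to 26 nt. The widest spans were 26 nt in HIST1H2AK, 22 nt in HIST1H2AM and 16 nt in HIST1H2AD. The 5'-most enriched nucleotide spanned a median of 31.5 nt and up to 370 nt, in HIST1H2AB, where a 5' peak was enriched in SLBP replicates 3 and 4 and none was in replicates 1 and 2. The genes did not share an order of the edges: the 3' edge had the smaller span in 5 genes, the 5' edge in 3 (HIST1H2AD, HIST1H2AH and HIST1H2AM), and the spans were equal in 2.

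RBFOX2 and IgG peaks were spread along the genes and did not cover that edge. No RBFOX2 and no IgG peak covered the common 3' edge in any of the 10 genes (0 of 10 for each antibody), whereas it was covered in all 4 SLBP libraries by construction. The misses were small in some genes: the closest RBFOX2 peak ended 2 nt short of the edge in HIST1H2AC, 6 nt short in HIST1H2AG and 9 nt short in HIST1H2AI, and over 50 nt short in the other 7. The closest IgG peak ended 15 nt short, in HIST1H2AC. Of the RBFOX2 window peaks, 24 of 27 (88.9%) in replicate 1 and 30 of 30 (100%) in replicate 2 lay below input, against 32.6% and 31.0% of all peaks in those lists. Of the IgG window peaks 5 of 17 (29.4%) lay below input, against 10.7% of all IgG peaks. With a single IgG library this has no replicate check.

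**Figure D3:**
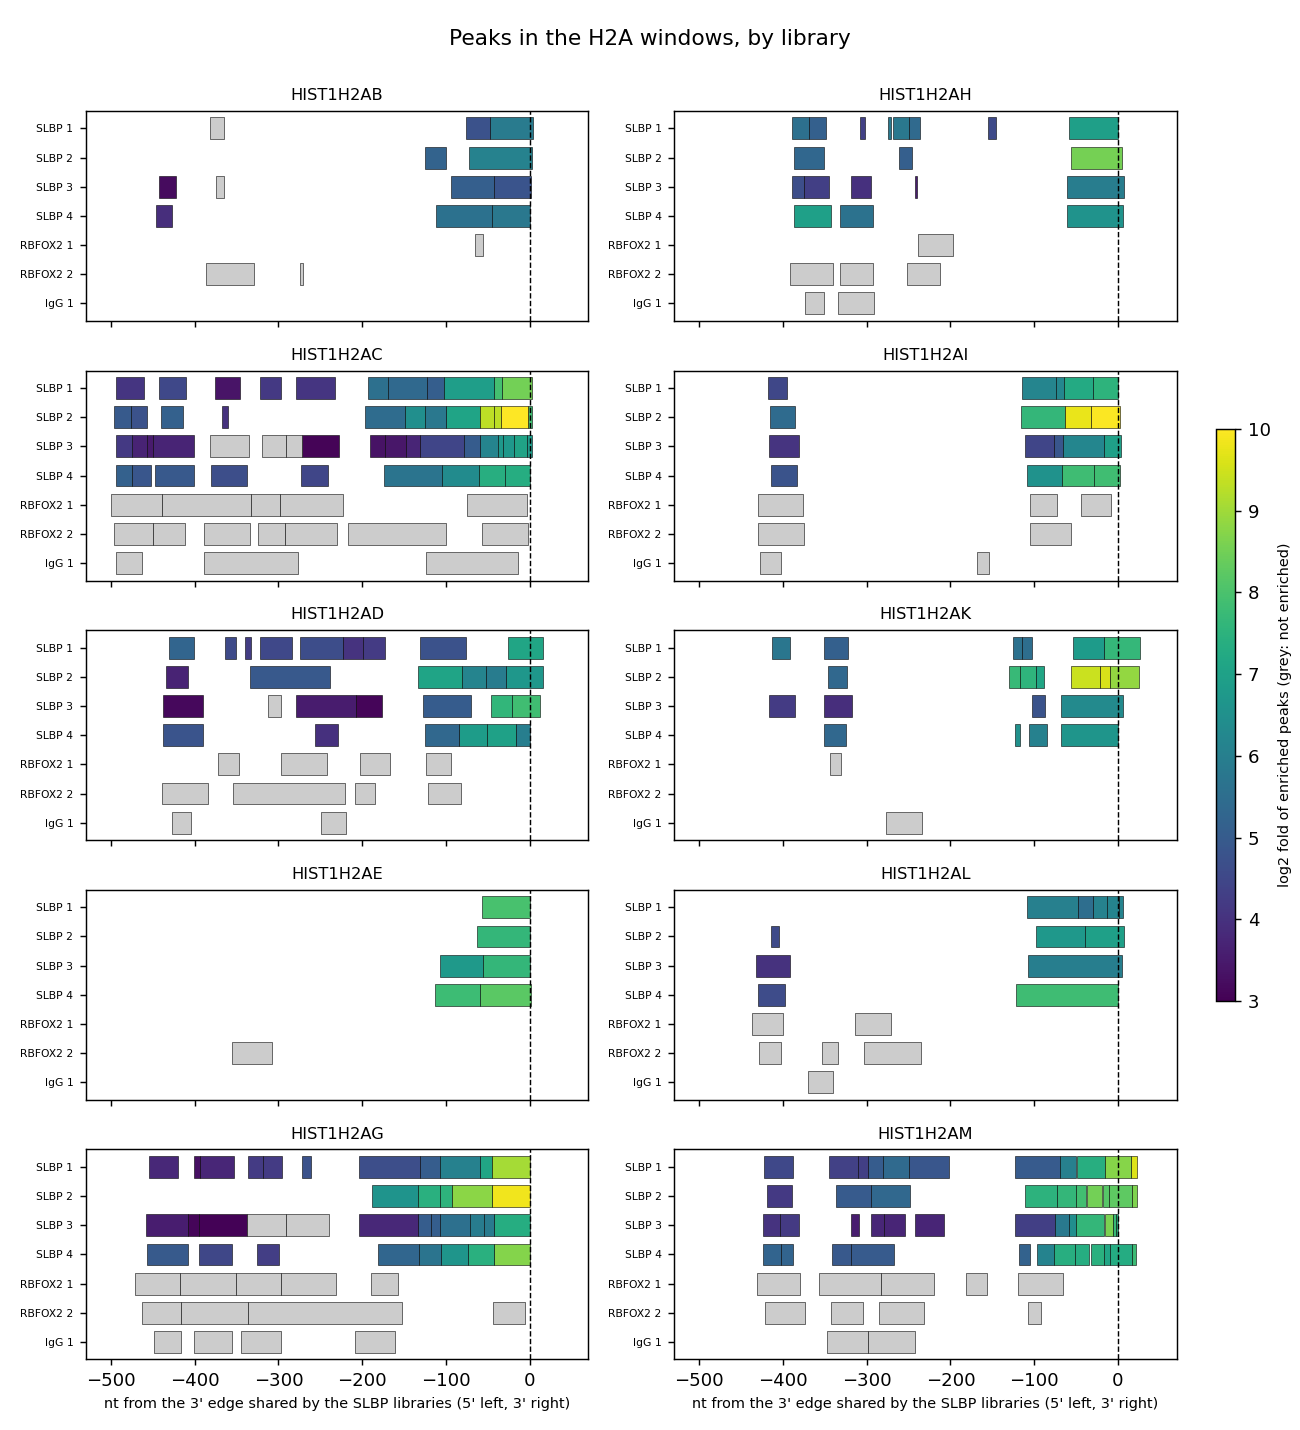
Peaks in the 10 H2A windows by library, drawn along each gene from 5' (left) to 3' (right) in nt from the common 3' edge (dashed line); enriched peaks are coloured by log2 fold and other peaks are grey. SLBP peaks are brightest next to the dashed line, and RBFOX2 and IgG peaks are grey throughout.

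The genes fell apart by how much of the window SLBP covered. HIST1H2AC had the longest enriched signal, 362, 271, 331 and 338 nt in SLBP replicates 1 to 4, against 0 nt in both RBFOX2 libraries and in IgG. HIST1H2AE had the shortest, 58, 63, 108 and 115 nt, as 1 peak at the 3' edge in replicates 1 and 2 and as 2 adjoining peaks in replicates 3 and 4. Mean enriched lengths were 326 ± 39, 288 ± 68, 266 ± 38 and 256 ± 39 nt (SD, n = 4) in HIST1H2AC, HIST1H2AG, HIST1H2AM and HIST1H2AD. In the other 6 genes they ran from 86.0 to 144 nt, and no library put any of these above 154 nt, whereas the lowest value among the 4 longest genes was 189 nt. Stretches enriched in all 4 SLBP libraries came to 1218 nt over the 10 genes, from 58 nt in HIST1H2AE to 234 nt in HIST1H2AC. Both genes of the type 1-B/E protein were among the 3 with the shortest common stretches (58 nt in HIST1H2AE, 73 nt in HIST1H2AB); the third, HIST1H2AK, had 76 nt.

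The 4 genes with the longest SLBP signal were also those with the longest RBFOX2 peaks. The RBFOX2 lists covered means of 378, 311, 213 and 199 nt of HIST1H2AC, HIST1H2AG, HIST1H2AM and HIST1H2AD with peaks of any fold, and 6.5 to 113 nt of the other 6 genes. Across the 10 genes, mean enriched SLBP length and mean RBFOX2 peak length had a Pearson r of 0.95 and a Spearman rho of 0.84; for the IgG list the values were 0.88 and 0.92. The 10 points share the libraries and the copies' sequence, and the correlations are descriptions.

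All 10 genes were enriched in SLBP libraries made with 5 U and with 40 U of RNase I. Mean enriched length was higher at 5 U in 7 of the 10 genes, but in 4 of 10 without SLBP replicate 2 and in 4 of 10 with stricter limits (−log10 p of at least 10 and log2 fold of at least 4). At the limits set above, both 5 U libraries lay above both 40 U libraries in 3 of the 10 genes, HIST1H2AB, HIST1H2AE and HIST1H2AL. In 1, HIST1H2AD, both lay below. Among the 156 stretches of touching peaks enriched in at least 1 SLBP library, 30.1% lay above and 12.8% below in this way. The 3 and 1 of 10 genes lay near these shares, which are not a like background. A stretch enriched in 1 library alone could not pass, whereas the windows were enriched in all 4 SLBP libraries and can pool several stretches. HIST1H2AE had 108 and 115 nt at 5 U, against 58 and 63 nt at 40 U, and HIST1H2AL had 153 and 154 nt at 5 U, against 115 and 115 nt at 40 U. The exact permutation p was 0.333 for these 4 genes (two-sided, 2 against 2 libraries, adjusted over the 10 genes p = 0.833), the smallest this design allows. Which genes separated depended on the limits. Under the stricter ones the permutation p was 0.667 in HIST1H2AL (23 nt, 5 U minus 40 U). It was then 0.333 in HIST1H2AK (−26.5 nt) and HIST1H2AM (−82 nt), where 5 U lay below. With a log2 fold of at least 2 the permutation p was 0.667 in HIST1H2AD (−39 nt). The median difference over the genes was 15.25 nt, and it was −10.5 nt without SLBP replicate 2. Side by side, and without knowing how the lists were scaled, the highest log2 fold averaged lower at 5 U than at 40 U in 7 of the 10 genes. The lists as a whole were shifted the same way. The median log2 fold of all peaks was 0.66 and 1.17 in SLBP replicates 3 and 4 (5 U), against 1.57 and 1.46 in replicates 1 and 2 (40 U). Any other difference between SLBP replicates 1 and 2 and replicates 3 and 4 cannot be told apart from the RNase I amount.

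**Figure D4:**
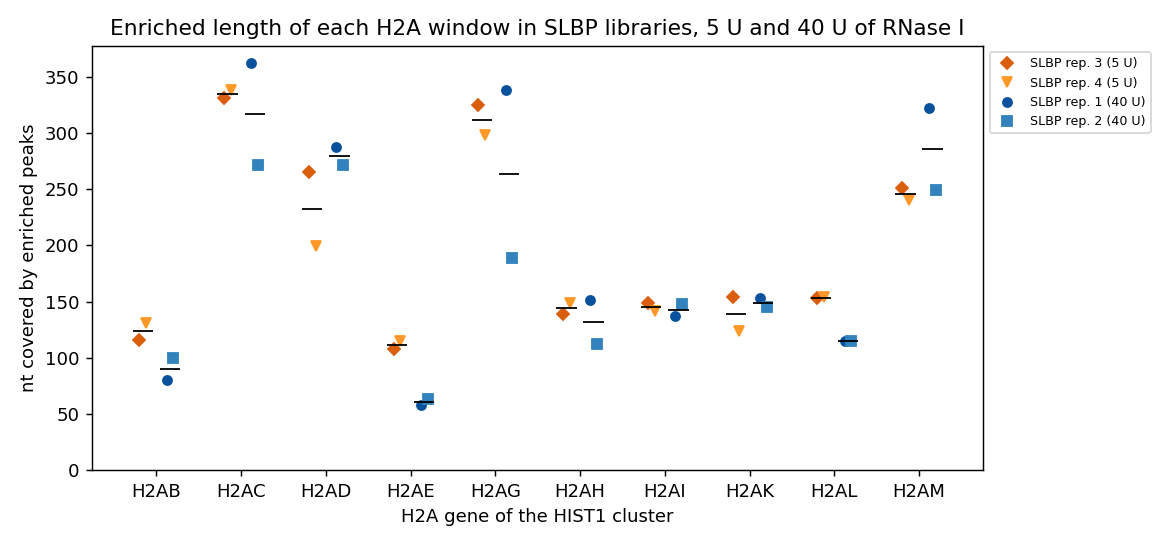
Nucleotides of each H2A window covered by enriched peaks in the 4 SLBP libraries, with the 5 U libraries left and the 40 U libraries right in each gene; horizontal bars are means of 2 libraries. HIST1H2AC reaches 362 nt, HIST1H2AE stays between 58 and 115 nt, and the RNase I amounts overlap in 6 of the 10 genes.

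Many H2A genes of HIST1 sit head to head with another histone gene, and the opposite strand upstream of most windows was enriched as well. In the 1 kb upstream of the window, on the opposite strand, an enriched SLBP peak lay next to 8, 7, 7 and 7 of the 10 H2A genes in replicates 1 to 4, and next to 7 of them in all 4 libraries. With 0.5 kb in place of 1 kb the mean was 4.75 genes, against 7.25. The upstream stretches of HIST1H2AB and HIST1H2AL held no SLBP peak in any of the 4 libraries. That of HIST1H2AE held SLBP peaks in all 4, with highest log2 folds of 4.94, 3.63, 4.47 and 3.58, and an enriched one in replicate 1 alone. In replicates 2 to 4 its highest peak passed the fold limit and missed the −log10 p limit. RBFOX2 and IgG had 0 enriched peaks in these stretches in each of the 3 libraries. Next to HIST1H2AH the neighbour's highest log2 fold averaged 9.15 ± 1.53 (SD, n = 4), above the H2A gene in 4 of 4 libraries. Next to HIST1H2AK it averaged 9.72 ± 1.68 (SD, n = 4), again above the H2A gene in 4 of 4. Next to HIST1H2AG it averaged 7.36 ± 0.86 (SD, n = 4), below the H2A gene in 4 of 4. The peaks carry no gene names, so the neighbours are not named here.

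Set against the rest of HIST1 (chromosome 6 from 26 to 28 Mb), the H2A genes held between 28.4% and 35.0% of the enriched SLBP peaks. They held 35.0%, 32.5%, 28.4% and 29.1% of the enriched peaks of HIST1 in SLBP replicates 1 to 4, a mean of 31.3% ± 3.1 (SD, n = 4). These shares were close to the H2A share of all SLBP peaks of HIST1, enriched or not, which was 32.4%, 30.3%, 28.8% and 27.7%, and to the H2A share of the enriched loci, which was 27.8%, 29.4%, 31.2% and 30.3%. The exact 95% intervals, which cover counting error only, overlapped: the lowest bound was 22.6% and the highest 42.1%. With enriched peaks of a strand joined within 1 kb, the other loci of HIST1 numbered 26, 24, 22 and 23. The median top log2 fold of the H2A genes was 7.59, 8.60, 7.02 and 7.57, against 7.81, 8.89, 7.46 and 7.72 for the other loci, and so the lower one in 4 of 4 lists. The highest single folds lay outside H2A: the H2A genes reached 9.64, 10.35, 8.59 and 8.71, against 10.81, 11.89, 9.83 and 9.42 at the other loci. The other loci outnumbered the H2A genes in each list, which by itself favours a higher maximum among them. Among loci spanning over 100 nt, the top peak lay 3' of the midpoint in 100%, 100%, 100% and 90.0% of the H2A genes, against 100%, 100%, 95.2% and 85.0% of the other loci. Enriched peaks of an H2A gene spanned a median of 429, 404.5, 431 and 434 nt, against 140.5, 125, 392.5 and 378 nt at the other loci, with a much wider gap in the 40 U libraries than in the 5 U ones. The H2A windows were set by position and the other loci by joining peaks, so these spans are descriptions and were not tested.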

How the data were processed

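The deposited files are 7 eCLIP peak lists, 1 per library: 4 SLBP, 2 RBFOX2 and 1 IgG. Each deposited list gives −log10 p-values and log2 folds of immunoprecipitation over the paired input, as the authors computed them; columns have no header, and the units were read from the values and the lists' naming. Per the submitters' processing notes, the tools included SAMtools, Picard, GATK, STAR and cutadapt, and the genome was hg19; the sources used here do not give the peak caller or how lists were scaled. No read counts are given, so the depth behind a fold is unknown. The other 17 samples of the series (7 inputs and 10 of an RNase I series) were not analysed here.

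Coordinates were turned to count from 1. Overlaps, enriched lengths and two-sided exact permutation tests were computed with Python 3.11.15, pandas 2.3.3 and scipy 1.17.1, and tested on simulated lists. The 10 members, the windows and all lists and limits were chosen with earlier results of these data known. All 10 genes are named, each with its highest fold in every library. Alternatives covered the call limits, overlap, window edges, merging of touching peaks, and left-out libraries.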

Additional observations from a re-analysis of the deposited data

Results flagged for a closer look

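Among 43 sets of 4 SLBP values examined for a value far from the other 3, 6 stood out. Chance flags about 1 in 20 sets of continuous values, but 3 of the 6 are whole numbers with 3 equal values, where any difference stands out, so the number of sets cannot be read against chance. HIST1H2AD had a highest log2 fold of 7.86 in SLBP replicate 3, against 6.99 to 7.13 in the other libraries, and 9 enriched peaks in replicate 1, against 6 in each of the others. HIST1H2AM had 322 enriched nt in replicate 1, against 240 to 251 nt in the others. The 3' edge of enrichment lay 101 nt from the window's 3' edge in HIST1H2AM in replicate 3, against 79 to 80 nt in the others. In HIST1H2AC it lay 87 nt away in replicate 4, against 85 nt, and in HIST1H2AE 137 nt away in replicate 4, against 138 nt.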

How the results depend on the processing

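All 10 H2A genes were enriched in all 4 SLBP libraries, and 0 in RBFOX2 and IgG, under each alternative tried: looser or stricter limits, 50% overlap, windows widened by 100 nt, merged touching peaks and libraries left out. Merging touching peaks moved the mean number of enriched SLBP peaks to 31, the share of HIST1 to 37.0%, and the median distance of the top peak from the window's 3' edge to 147 nt, against 60, 31.3% and 114 nt as reported or without merging. An upstream stretch of 0.5 kb in place of 1 kb gave 4.75 genes with an enriched neighbour, against 7.25. The median 5 U minus 40 U difference in enriched length was −3.25 nt with −log10 p of at least 10 and log2 fold of at least 4, and ran from −10.5 to 27.8 nt with single libraries left out (lowest without SLBP replicate 2). Under the stricter limits it turned to −56 nt in HIST1H2AC, −6 nt in HIST1H2AG and −0.5 nt in HIST1H2AH. With single libraries left out it ran from −27.5 to 63.5 nt in HIST1H2AC, −26.5 to 122.5 nt in HIST1H2AG, −7 to 32 nt in HIST1H2AH, −2.5 to 8.5 nt in HIST1H2AI and −25 to 5 nt in HIST1H2AK; the cause was not tested. With the replicate number as a block (SLBP replicates 1 and 2 against RBFOX2 replicates 1 and 2), the median difference in enriched length was 145.75 nt, against 144 nt without it, with an exact sign-flip p of 0.5, the smallest 2 pairs allow; RBFOX2 values were all 0, so whether equal numbers pair the libraries could not be checked. Unknown read depth limits all single folds.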

Other observations

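SLBP enrichment reached far upstream of the 3' edge in 5 to 7 of the 10 H2A genes per library. With midpoints 400 to 500 nt upstream of the common 3' edge, 6, 5, 7 and 6 of the 10 genes had an enriched peak in SLBP replicates 1 to 4, with median highest log2 folds of 4.52, 4.57, 3.99 and 4.89. RBFOX2 replicates 1 and 2 had peaks in that bin in 5 genes each, with medians of −1.12 and −1.14, and IgG in 4 genes, with a median of 0.05; 0 of them were enriched. In HIST1H2AC, HIST1H2AD, HIST1H2AG, HIST1H2AK and HIST1H2AM other enriched peaks lay along the gene in SLBP replicate 1, between the far ones and the 3' edge. In HIST1H2AI a single enriched 5' peak, with its midpoint 399 to 406.5 nt upstream, stood in each SLBP library, with log2 folds of 4.48, 5.43, 4.05 and 4.79, and no SLBP peak lay between it and the 3' group. HIST1H2AE had no peak that far upstream in any of the 7 libraries.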
